A study of Homo sapiens with 12 samples.

Results

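The aminoacyl tRNA synthetase genes were the nuclear genes for the enzymes that load each transfer RNA with its amino acid. They were chosen by name, from AARS1 to YARS1 for the cytosolic enzymes and from AARS2 to YARS2 for the mitochondrial ones, with EPRS1, FARSA and FARSB. This gave 37 genes of the 58347 in the count files, and all 37 were among the 16740 genes with enough counts to be tested. In this set, 20 genes encode cytosolic enzymes, with GARS1 and KARS1 counted here although they serve both compartments, and 17 encode mitochondrial enzymes. The rule used names and no measured value, but the set was chosen with earlier results of these data known.

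Each synthetase joins 1 amino acid to its matching transfer RNAs, and the ribosome then uses the charged transfer RNA to read a codon. EPRS1 carries the glutamate and the proline enzyme in a single chain, and FARSA and FARSB are the subunits of the cytosolic phenylalanine enzyme. Several cytosolic enzymes sit together in the multisynthetase complex, held by the scaffold proteins AIMP1, AIMP2 and EEF1E1. ATF4, a transcription factor made when amino acids are short or the unfolded protein response is on, is known to bind near several cytosolic synthetase genes, and MYC is known to drive many genes of protein synthesis.

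The study asked how A375 cells, an established human melanoma line with mutant BRAF, respond to the BRAF inhibitor vemurafenib, to the retinoid tretinoin, and to the pair of drugs. RNA was sequenced after 8 h in 4 groups of 3 replicates: DMSO vehicle, tretinoin, vemurafenib, and vemurafenib with tretinoin (the combination). The labels give 5 µM for every group, the vehicle among them. The 12 libraries share a single cell line, so no donor or second line stands behind any value, and no source used here says whether replicates were separate cultures. The p-values therefore measure the spread between these libraries, which may be technical.

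Total counts lay between 13510235 and 21534377, the lowest being tretinoin replicate 1. Levels are CPM, the share of a library's counts after scaling by the TMM method, and are given in replicate order. Genes were called at an adjusted p below 0.05 in edgeR's quasi-likelihood test. Targets of both drugs moved. DUSP6, a target of the MAPK pathway, fell from 122 ± 5.4 to 1.81 ± 0.364 CPM with vemurafenib, and SPRY4 and ETV5 fell with it. The retinoid target DHRS3 rose from 20.8 ± 3.18 to 156 ± 11.9 CPM with tretinoin and to 402 ± 8.06 with the combination. It also rose with vemurafenib alone, to 69.2 ± 2.0 CPM. RARB, another retinoid target, missed the threshold with tretinoin at 0.82 ± 0.28 (edgeR, adjusted p = 0.101) and rose with vemurafenib and with the combination. CYP26A1, a further one at a very low level, was not called with tretinoin (0.29 ± 0.11 CPM with DMSO and 0.41 ± 0.10 with tretinoin). It rose with the combination. Of 7 melanocyte and melanoma markers, SOX10 had 0 counts in every library, TYR had at most 1, and MLANA, DCT and PMEL stayed under 2 CPM. S100B, at 9.08 ± 0.568 CPM with DMSO and 9.22 ± 0.402 with vemurafenib, was not called. MITF, a regulator of the melanocyte lineage, rose with vemurafenib by 0.88 ± 0.10 on the log2 scale, while AXL and NGFR, markers of dedifferentiated melanoma, fell by 23.3% and 37.1% (edgeR, adjusted p = 1.25e-06, 0.00148 and 7.84e-06), and all 3 moved the same way with the combination. The vemurafenib call of AXL was lost with total counts alone (-0.19). The summed level of 7 markers of other cell types was 19.5 to 24.2 CPM with DMSO and 42.0 to 45.3 CPM with vemurafenib. KRT14 rose there, as did COL1A1, from 3.39 to 8.44 CPM, and PTPRC, from 1.11 to 2.8 CPM. KRT5, PECAM1 and PDGFRA were not called, with PECAM1 going from 0.96 to 0.52 CPM and PDGFRA from 1.3 to 1.14 CPM. EPCAM stayed under 0.4 CPM. The part of these markers in the results was not tested.

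Cytosolic synthetase genes were expressed above most mitochondrial ones. Compared per length, as fragments per kilobase of exon scaled to library size (FPKM), FARSA stood first with DMSO at 209.9 ± 12.7 (mean ± SD, n = 3). RARS1 at 102 ± 5.1 and KARS1 at 98.6 ± 4.17 FPKM came next and differed by less than their SDs, followed by GARS1 at 89.3 ± 4.84 and EPRS1 at 81.7 ± 3.25. IARS2, the mitochondrial isoleucine enzyme, ranked 8 of 37 at 64.2 ± 1.66 FPKM and was the only mitochondrial gene among the first 17. PARS2, FARS2 and SARS2 were lowest at 4.53 ± 0.84, 2.2 ± 0.172 and 0.17 ± 0.0998 FPKM.

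The order at the top changed with the drugs. With the combination FARSA stood at 123 ± 3.04 FPKM, AARS1 at 116 ± 0.724 and GARS1 at 113 ± 5.25. AARS1, the alanine enzyme, had ranked 11 with DMSO at 60.9 ± 2.26 FPKM. SARS2 held only 4 to 19 counts per library, and 57.0% of its exon bases are shared with neighbouring annotated genes, MRPS12 among them. Counting dropped fragments that touch exons of 2 genes, so its level is a lower limit and its fold changes are uninformative. Shared exon bases also reached 21.99% in VARS2, 15.8% in HARS2 and 13.3% in MARS1, and their part in the results was not tested.

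Sequence next to the starts of these genes is shown for 2 motifs, since the members moved in both directions. RefSeq (GRCh38.p14) gave promoter windows, from 250 bases before to 50 bases after the start, for 30 of the 37 genes. The composite element bound by ATF4 with C/EBP proteins was searched as TGATGNAA, and the E-box, which MYC and other factors bind, as CACGTG, both on either strand. The sequences read 5′ to 3′ along the gene, with the motif in capitals. AARS1 and MARS2 are given from 250 bases before the start because they had the largest rise and fall with vemurafenib, and the other genes as 30 bases around the motif.
AARS1 (chr16:70289507-70289756, minus strand): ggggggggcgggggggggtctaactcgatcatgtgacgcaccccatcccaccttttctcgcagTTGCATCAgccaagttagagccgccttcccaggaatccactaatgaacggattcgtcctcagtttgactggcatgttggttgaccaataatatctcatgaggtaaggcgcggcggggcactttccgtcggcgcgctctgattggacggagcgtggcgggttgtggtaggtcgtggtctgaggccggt
CARS1 (chr11:3057407-3057436, minus strand): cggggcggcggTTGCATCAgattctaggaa
GARS1 (chr7:30594834-30594863, plus strand): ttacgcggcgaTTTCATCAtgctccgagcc
IARS1 (chr9:92293692-92293721, minus strand): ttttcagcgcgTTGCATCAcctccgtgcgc
MARS1 (chr12:57488053-57488082, plus strand): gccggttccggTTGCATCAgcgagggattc
NARS1 (chr18:57621804-57621833, minus strand): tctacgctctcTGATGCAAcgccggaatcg
TARS1 (chr5:33440956-33440985, plus strand): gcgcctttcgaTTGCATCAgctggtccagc
YARS2 (chr12:32756076-32756105, minus strand): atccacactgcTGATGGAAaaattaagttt
MARS2 (chr2:197705119-197705368, plus strand): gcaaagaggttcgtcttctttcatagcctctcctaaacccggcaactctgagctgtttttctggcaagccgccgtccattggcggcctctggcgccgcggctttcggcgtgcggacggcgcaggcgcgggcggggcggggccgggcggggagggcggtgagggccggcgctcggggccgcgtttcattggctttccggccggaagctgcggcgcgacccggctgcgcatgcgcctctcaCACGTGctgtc
CARS2 (chr13:110706501-110706530, minus strand): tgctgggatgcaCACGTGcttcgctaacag
EARS2 (chr16:23557348-23557377, minus strand): cagggagaagccCACGTGtgctattccatc
IARS1, E-box (chr9:92293866-92293895, minus strand): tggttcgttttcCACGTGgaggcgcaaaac

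The composite element was near a start of 8 of the 30 genes, 26.7%, against 4.46% of the 27305 genes of the RefSeq table, some with several annotated starts. Its holders were 7 of 16 cytosolic genes, AARS1, CARS1, GARS1, IARS1, MARS1, NARS1 and TARS1, and 1 of 14 mitochondrial genes, YARS2. In CARS1, GARS1, IARS1, MARS1, NARS1 and TARS1 the motif lay within 33 bases of the start, and in AARS1 and YARS2 it lay 187 and 197 bases before it. The E-box was near a start of 4 of the 30 genes, 13.3%, against 8.78% of the genes of the table, and 3 of the 4 holders, CARS2, EARS2 and MARS2, are mitochondrial. IARS1 held both motifs at separate places. A match describes letters only and does not show that a factor binds there.

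Vemurafenib moved synthetase genes in both directions. Against DMSO, 12 of the 37 genes rose and 14 fell, while 26.4% of all genes tested rose and 26.3% fell. The median log2 fold change over the 37 was -0.018, beside 0.019 over all genes tested. AARS1 had the largest rise, 1.73-fold, and MARS2, the mitochondrial methionine enzyme, the largest fall, by 55.7%. Among the 20 cytosolic genes 8 rose and 8 fell, and among the 17 mitochondrial genes 4 rose and 6 fell. Levels did not overlap between vemurafenib and DMSO for 28 of the 37 genes, beside 61.9% of all genes tested. RNA-seq of bulk cells cannot tell fewer cells expressing a gene from less RNA in each cell.

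**Figure D1:**
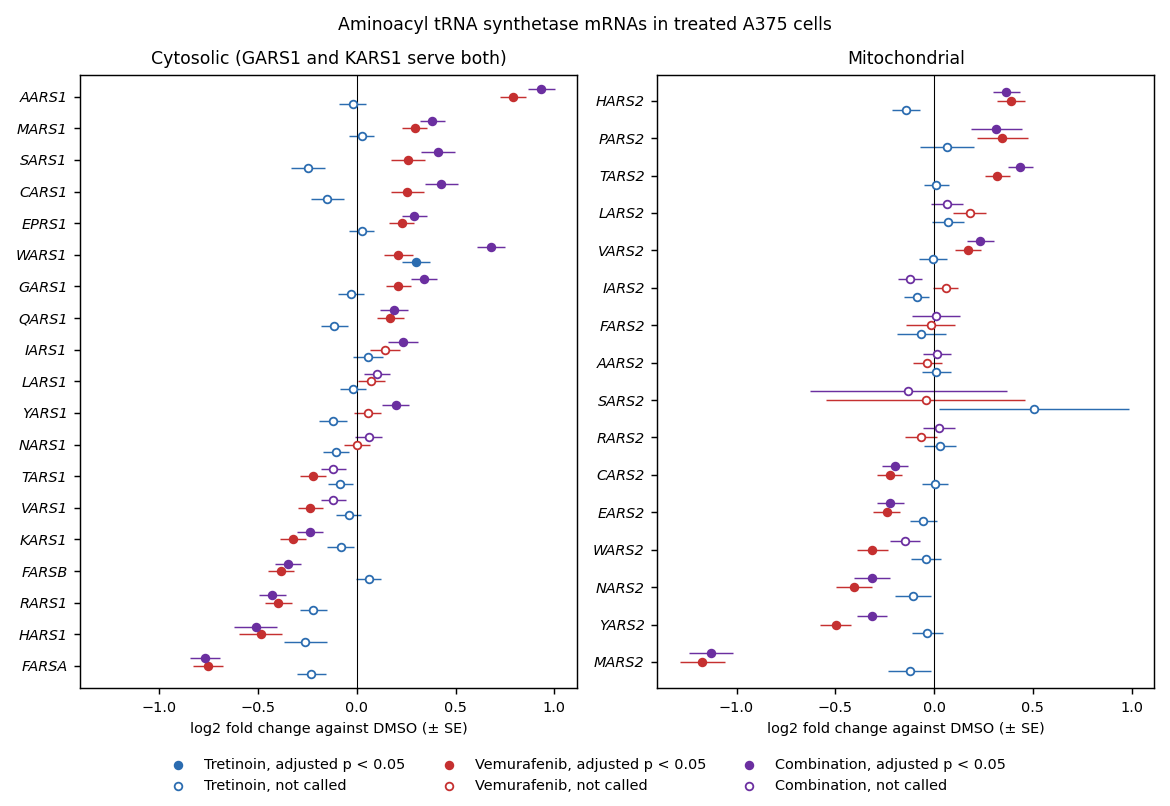
Log2 fold change against DMSO with its SE (x axis) for 19 cytosolic and 16 mitochondrial synthetase genes (y axis, ordered by vemurafenib), with tretinoin, vemurafenib and the combination in different colours and called genes filled. Vemurafenib and combination points lie together for most genes, from MARS2 below -1 to AARS1 near 0.8 and 0.9, while WARS1 is the only filled tretinoin point.

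AARS1 (ENSG00000090861.15, chr16:70252295-70289543, minus strand, GRCh38) held 263, 283 and 276 CPM in the DMSO libraries, 246, 282 and 281 with tretinoin, 475, 478 and 468 with vemurafenib and 519.9, 522 and 526 with the combination. All 6 libraries with vemurafenib lay above all 6 without it, and the combination libraries lay above those with vemurafenib alone. Its log2 fold change was 0.79 ± 0.067 (± SE) with vemurafenib and 0.93 ± 0.068 with the combination, with edgeR adjusted p of 3.1e-08 and 3.44e-09. Its promoter, printed above, held the composite element and no E-box.

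MARS1, the cytosolic methionine enzyme, held 404, 408 and 421 CPM with DMSO, 412, 421 and 421 with tretinoin, 508, 503 and 499.5 with vemurafenib and 509, 553 and 545 with the combination. Every library with vemurafenib exceeded every library without it. MARS1 changed by 0.29 ± 0.062 on the log2 scale with vemurafenib (edgeR, adjusted p = 0.000685) and 0.38 ± 0.062 with the combination (adjusted p = 5e-05).

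The serine enzyme gene SARS1 held 229, 257 and 234 CPM with DMSO, 169.6, 213 and 223 with tretinoin, 279, 282 and 301 with vemurafenib and 326, 315 and 314 with the combination. Tretinoin libraries were the lowest group and combination libraries the highest, with no overlap among the 4 groups. The log2 fold change was 0.26 ± 0.086 with vemurafenib (edgeR, adjusted p = 0.0172), 0.41 ± 0.086 with the combination (adjusted p = 0.000675) and -0.25 ± 0.087 with tretinoin, which missed the threshold (adjusted p = 0.103).

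CARS1, for cysteine, held 113, 121 and 108 CPM with DMSO, 90.03, 107 and 110.2 with tretinoin, 129, 133 and 147 with vemurafenib and 165, 146 and 149 with the combination. Vemurafenib libraries lay above DMSO, and 1 of them overlapped the range of the combination. CARS1 changed by 0.26 ± 0.083 on the log2 scale with vemurafenib (edgeR, adjusted p = 0.0156) and 0.43 ± 0.083 with the combination (adjusted p = 0.000323). EPRS1, GARS1, WARS1 and QARS1 made up the other cytosolic rises with vemurafenib, between 0.17 and 0.23 on the log2 scale.

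Among the rises of mitochondrial genes, HARS2, for histidine, held 47.2, 44.2 and 47.6 CPM with DMSO, 39.4, 42.5 and 44.1 with tretinoin, 58.5, 60.5 and 63.2 with vemurafenib and 60.8, 62.3 and 56.4 with the combination. TARS2, for threonine, held 92.5, 87.1 and 91.03 CPM with DMSO, 86.2, 91.7 and 94.9 with tretinoin, 111, 115 and 112 with vemurafenib and 128, 121 and 118 with the combination. For both genes the 6 libraries with vemurafenib lay above the 6 without it. The log2 fold change with vemurafenib was 0.39 ± 0.07 for HARS2 and 0.32 ± 0.063 for TARS2 (edgeR, adjusted p = 0.000172 and 0.000374), and with the combination 0.37 ± 0.07 and 0.44 ± 0.063 (adjusted p = 0.000278 and 1.57e-05).

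PARS2, for proline, is expressed at a low level and held 10.8, 8.58 and 12.5 CPM with DMSO, 11.4, 12.3 and 9.97 with tretinoin, 13.1, 14.4 and 13.2 with vemurafenib and 13.1, 11.99 and 14.8 with the combination. The combination overlapped DMSO and vemurafenib alone did not. Its log2 fold change was 0.34 ± 0.13 with vemurafenib (edgeR, adjusted p = 0.0342) and 0.32 ± 0.13 with the combination (adjusted p = 0.0493). VARS2, for valine, completed the rises at 0.17 with vemurafenib.

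Not all of these rises held when a single library was left out. Without DMSO replicate 1, 6 synthetase genes rose with vemurafenib in place of 12, and without vemurafenib replicate 2 or 3 there were 7. AARS1, MARS1, HARS2 and TARS2 kept their call in all 13 alternatives run. CARS1 lost it without DMSO replicate 1 (log2 fold change 0.25), DMSO replicate 3 (0.21) or vemurafenib replicate 3 (0.20), SARS1 without the same libraries (0.22, 0.24 and 0.22), and GARS1 without DMSO replicate 1 (0.17) or vemurafenib replicate 2 (0.19). WARS1 lost it without DMSO replicate 1 (0.18) or 2 (0.20) or vemurafenib replicate 1 (0.17) or 2 (0.21). PARS2 lost it without DMSO replicate 1 (0.35) or 2 (0.21) or vemurafenib replicate 1 (0.37), 2 (0.30) or 3 (0.36). The QARS1 call ended without DMSO replicate 1 (0.17) or 3 (0.12) or vemurafenib replicate 1 (0.17), 2 (0.18) or 3 (0.15), and that of VARS2 without DMSO replicate 2 (0.18) or 3 (0.13) or vemurafenib replicate 1 (0.18), 2 (0.17) or 3 (0.15).

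MARS2 (ENSG00000247626.4, chr2:197705369-197708387, plus strand, GRCh38) held 31.1, 33.2 and 35.4 CPM with DMSO, 36.5, 27.02 and 28.3 with tretinoin, 16.5, 13.2 and 14.5 with vemurafenib and 14.9, 15.2 and 15.6 with the combination. The 6 libraries with vemurafenib were all below 17 CPM and the 6 without it all above 27. MARS2 changed by -1.17 ± 0.11 on the log2 scale with vemurafenib (edgeR, adjusted p = 1.33e-07) and -1.13 ± 0.11 with the combination (adjusted p = 1.84e-07). Its promoter, printed above, held an E-box 11 bases before the start.

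FARSA held 502, 546 and 486 CPM with DMSO, 390.2, 451 and 466 with tretinoin, 295, 297 and 316 with vemurafenib and 307, 292 and 301 with the combination. FARSB, the other subunit, held 76.6, 75.1 and 81.05 CPM with DMSO, 81.4, 84.6 and 76.7 with tretinoin, 62.2, 57.8 and 58.4 with vemurafenib and 59.8, 60.4 and 62.4 with the combination. Libraries with vemurafenib lay below all libraries without it for both genes. Tretinoin libraries lay below DMSO for FARSA and overlapped DMSO for FARSB. FARSA fell by 40.8% with vemurafenib, a log2 fold change of -0.76 ± 0.075, and FARSB by 23.4%, a log2 fold change of -0.39 ± 0.065 (edgeR, adjusted p = 2.07e-07 and 9.05e-05). With the combination the values were -0.77 ± 0.075 and -0.35 ± 0.065 (adjusted p = 1.61e-07 and 0.000208).

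HARS1, the cytosolic histidine enzyme, held 228, 258 and 228 CPM with DMSO, 151, 218 and 226 with tretinoin, 166, 169 and 175 with vemurafenib and 175, 162 and 164 with the combination. Tretinoin replicate 1 lay below every vemurafenib library, while the other tretinoin libraries lay above them. Its log2 fold change was -0.49 ± 0.11 with vemurafenib (edgeR, adjusted p = 0.00115) and -0.51 ± 0.11 with the combination (adjusted p = 0.000722).

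RARS1, for arginine, held 336, 368 and 339.5 CPM with DMSO, 276, 306 and 313 with tretinoin, 257, 262 and 273 with vemurafenib and 267, 252 and 257 with the combination. Vemurafenib and combination libraries overlapped each other and lay below all others, with tretinoin between them and DMSO. The log2 fold change was -0.40 ± 0.068 with vemurafenib (edgeR, adjusted p = 9.81e-05) and -0.43 ± 0.068 with the combination (adjusted p = 4.17e-05).

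YARS2, the mitochondrial tyrosine enzyme, held 55.04, 57.5 and 60.95 CPM with DMSO, 51.3, 58.4 and 59.6 with tretinoin, 42.2, 40.9 and 39.8 with vemurafenib and 42.4, 48.6 and 48.4 with the combination. NARS2, for asparagine, held 27.3, 33.5 and 34.6 CPM with DMSO, 28.4, 31.7 and 28.5 with tretinoin, 24.9, 23.96 and 23.3 with vemurafenib and 25.9, 26.02 and 24.9 with the combination. In both genes the vemurafenib libraries were lowest and did not overlap DMSO. The log2 fold change with vemurafenib was -0.50 ± 0.078 for YARS2 and -0.41 ± 0.09 for NARS2 (edgeR, adjusted p = 4.11e-05 and 0.00114), and with the combination -0.32 ± 0.077 and -0.32 ± 0.09 (adjusted p = 0.00233 and 0.00678).

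KARS1, VARS1 and TARS1, for lysine, valine and threonine, were among the other cytosolic genes that fell with vemurafenib, between -0.32 and -0.22 on the log2 scale. WARS2, EARS2 and CARS2, for tryptophan, glutamate and cysteine, were the other mitochondrial ones, between -0.31 and -0.23. All 14 falls were called with any single library left out. Scaling by total counts alone, which moved the median of all genes by 0.20 on the log2 scale, left 6 of the 14, those of FARSA, FARSB, HARS1, RARS1, MARS2 and YARS2. It kept all 12 rises and added those of IARS1, LARS1, NARS1, YARS1, IARS2 and LARS2, so that 18 genes rose and 6 fell.

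**Figure D2:**
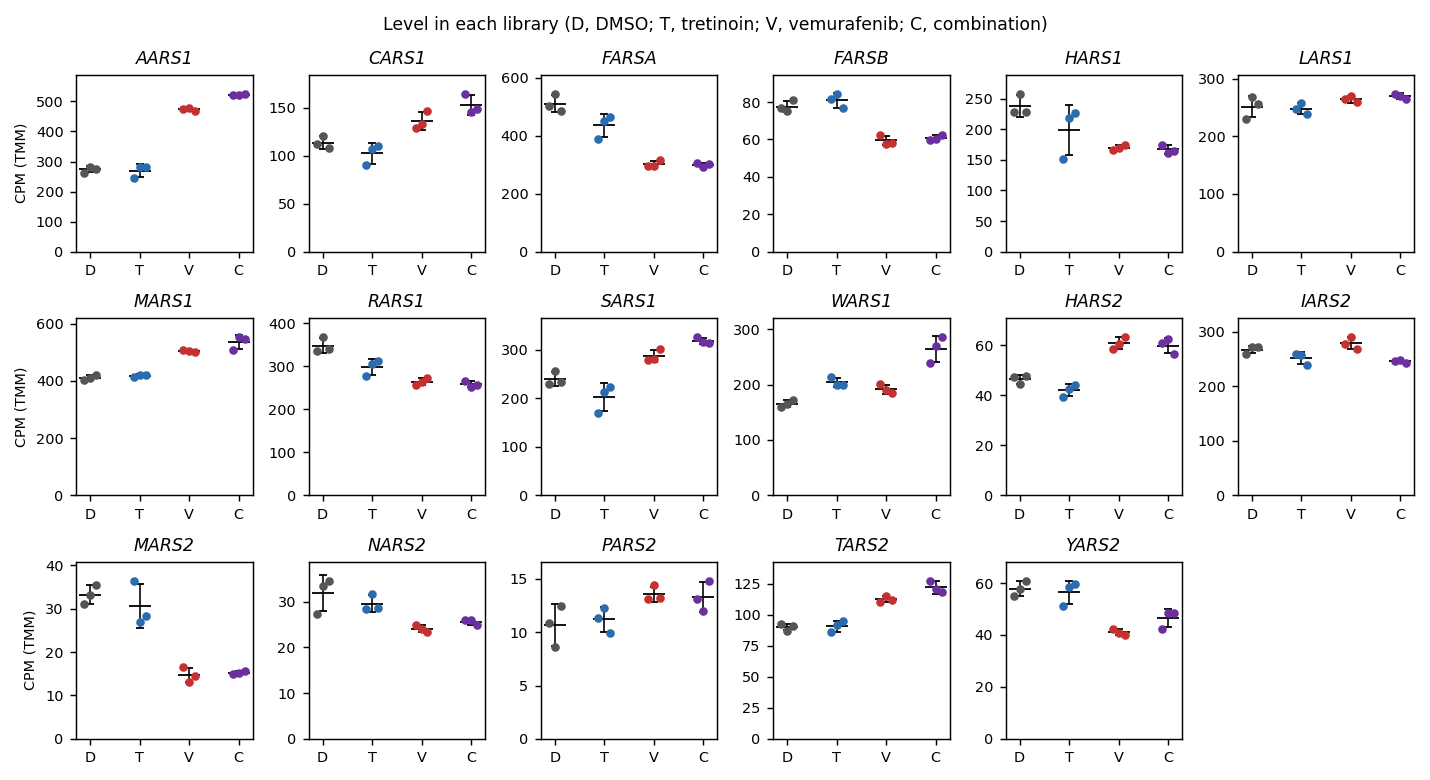
TMM-scaled CPM (y axis, from 0) in each library for 17 synthetase genes, by group (x axis: D, DMSO; T, tretinoin; V, vemurafenib; C, combination), with points for replicates and bars for mean ± SD. AARS1, MARS1, HARS2 and TARS2 are higher and FARSA, FARSB, RARS1, MARS2 and YARS2 lower in all 6 libraries with vemurafenib than in the 6 without it.

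The combination moved mostly the same genes in the same direction. Against DMSO 14 of 37 genes rose, beside 27.1% of all genes tested, and 11 fell, beside 26.5%. All 12 genes that rose with vemurafenib rose here too, joined by IARS1 and YARS1, and the 11 that fell had all fallen with vemurafenib, without TARS1, VARS1 and WARS2. No gene was called in opposite directions. The comparisons share their DMSO libraries, so their likeness is not independent. IARS1 was at 0.23 ± 0.075 (edgeR, adjusted p = 0.0134) and lost its call without combination replicate 2 (0.22) or 3 (0.20) or DMSO replicate 1 (0.17). YARS1 was at 0.20 ± 0.069 (adjusted p = 0.0221) and lost it without combination replicate 2 (0.20) or 3 (0.17) or DMSO replicate 1 (0.16) or 3 (0.18). QARS1 lost its rise without combination replicate 2 (0.16) or 3 (0.15) or DMSO replicate 1 (0.19) or 3 (0.13), PARS2 without combination replicate 1 (0.32) or 3 (0.22) or DMSO replicate 1 (0.32) or 2 (0.19), and VARS2 without DMSO replicate 3 (0.19). CARS2 lost its fall without combination replicate 2 (-0.19) or DMSO replicate 1 (-0.19). With total counts alone, 5 of the 11 falls were called, and LARS1, NARS1 and LARS2 joined the 14 rises, so that 17 genes rose and 5 fell.

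WARS1, the cytosolic tryptophan enzyme (ENSG00000140105.17, on chromosome 14), was the only synthetase gene called with tretinoin and the only one called between the combination and vemurafenib. It held 160.0, 165 and 172 CPM with DMSO, 213, 199.5 and 199.5 with tretinoin, 201, 189.8 and 184 with vemurafenib and 239.6, 269.6 and 286 with the combination. DMSO libraries were lowest, single-drug libraries overlapped each other, and all 3 combination libraries lay above all others. Its log2 fold change against DMSO was 0.30 ± 0.072 with tretinoin, 0.21 ± 0.072 with vemurafenib and 0.68 ± 0.072 with the combination (edgeR, adjusted p = 0.0211, 0.0212 and 4.71e-07). The combination exceeded vemurafenib by 0.47 ± 0.072 (adjusted p = 0.000462) and tretinoin by 0.38 ± 0.072 (adjusted p = 0.000294), and both of these calls held in all 13 alternatives run. Its interaction term was 0.17 ± 0.10 (adjusted p = 0.432). The tretinoin call was lost without DMSO replicate 1 (0.28) or 2 (0.30), and when only the tretinoin and DMSO libraries were fitted (0.31).

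With tretinoin alone 1 of 37 synthetase genes rose, beside 3.48% of all genes tested, and 0 fell by edgeR, beside 2.2%. At an unadjusted p below 0.05, 6 of the 37 genes differed, beside 23.4% of all genes tested, and DESeq2 called FARSA (-0.23 in edgeR, adjusted p = 0.0803) and RARS1 (-0.22, adjusted p = 0.0656) lower. Without tretinoin replicate 3, edgeR called FARSA (-0.28), RARS1 (-0.26) and SARS1 (-0.33) lower. Tretinoin replicate 1, the library with the lowest total, held the lowest level of its group for FARSA, HARS1, RARS1, SARS1 and CARS1.

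Between the combination and vemurafenib, 1 of 37 genes rose, beside 2.27% of all genes tested, and 0 fell by edgeR, beside 2.2%. At an unadjusted p below 0.05, 5 of the 37 differed, beside 14.2% of all genes tested, and DESeq2 called IARS2 lower as well. IARS2 held 259, 271 and 271 CPM with DMSO, 259, 258 and 238 with tretinoin, 277, 290.0 and 268 with vemurafenib and 246, 248 and 242 with the combination. The combination libraries lay below all DMSO and vemurafenib libraries. Its edgeR log2 fold change was -0.18 ± 0.063 against vemurafenib (adjusted p = 0.134) and -0.12 ± 0.063 against DMSO (adjusted p = 0.109), and the second value turned to 0.041 with total counts alone.

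Against tretinoin, the combination raised 13 of 37 genes, beside 24.1% of all genes tested, and lowered 7, beside 25%. AARS1 at 0.95 ± 0.068, SARS1 at 0.66 ± 0.087 and CARS1 at 0.58 ± 0.084 rose most (edgeR, adjusted p = 2.89e-09, 6.76e-06 and 1.86e-05), and MARS2 at -1.004 ± 0.11 fell most (adjusted p = 9.62e-07). With total counts alone 16 genes rose and 4 fell. HARS1 was at -0.25 ± 0.11 and missed the threshold (adjusted p = 0.0657), and without tretinoin replicate 1 it was at -0.41 and called. NARS1 lost its rise with any library left out (0.12 to 0.18). Among the falls, RARS1 lost its call without combination replicate 2 (-0.20) or tretinoin replicate 2 (-0.20) or 3 (-0.18), CARS2 without combination replicate 2 (-0.20) or tretinoin replicate 3 (-0.17), and EARS2 without combination replicate 1 (-0.15) or 2 (-0.17) or tretinoin replicate 1 (-0.14) or 2 (-0.17).

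The interaction, which asks whether the combination differs from the sum of the single drugs on the log2 scale, was called for 0 of 37 synthetase genes by edgeR and by DESeq2, beside 0.382% of all genes called higher and 0.424% lower. At an unadjusted p below 0.05 edgeR gave 3 of the 37 genes, beside 15.6% of all genes tested. They were SARS1 at 0.40 ± 0.12, CARS1 at 0.32 ± 0.12 and YARS1 at 0.26 ± 0.097, with edgeR adjusted p of 0.154, 0.225 and 0.228, and they are named here because of these values. Without a filter on low counts, SARS1 was called at 0.42.

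Of the 37 genes, 8 were called in no comparison, among them LARS1 and the mitochondrial AARS2, FARS2, IARS2, LARS2, RARS2 and SARS2. The share of all genes tested that was called in no comparison was not counted, so 8 of 37 has no background beside it. LARS1, the leucine enzyme, held 231, 267 and 256 CPM with DMSO, 248, 258 and 238 with tretinoin, 264, 270.4 and 258 with vemurafenib and 274, 270.1 and 265 with the combination. Vemurafenib overlapped DMSO, and its log2 fold change was 0.074 ± 0.067 (edgeR, adjusted p = 0.372). With total counts alone it was called at 0.27, as was IARS2 at 0.26.

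The enzymes of the multisynthetase complex did not move as a unit. With vemurafenib, MARS1, EPRS1 and QARS1 rose, RARS1 and KARS1 were among those that fell, and IARS1 and LARS1 were at 0.14 and 0.074 without a call. The scaffold genes gave 3 falls of 3 with vemurafenib and with the combination. Of all genes tested, 26.4% rose and 26.3% fell with vemurafenib, and 26.5% fell with the combination. EEF1E1 held 10.9, 10.9 and 11.03 CPM with DMSO, 11.2, 9.3 and 9.97 with tretinoin, 5.76, 6.25 and 4.51 with vemurafenib and 5.83, 5.3 and 5.48 with the combination. All 6 libraries with vemurafenib were below 7 CPM and the others above 9. Its log2 fold change was -0.98 ± 0.13 with vemurafenib (edgeR, adjusted p = 5e-06), that of AIMP2 -0.50 ± 0.085 (adjusted p = 9.07e-05) and that of AIMP1 -0.44 ± 0.09 (adjusted p = 0.000522). All 3 kept their call in all 13 alternatives for both comparisons. EEF1E1 and AIMP2 share 18.7% and 28.9% of their exon bases with other annotated genes, whose part was not tested.

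**Figure D3:**
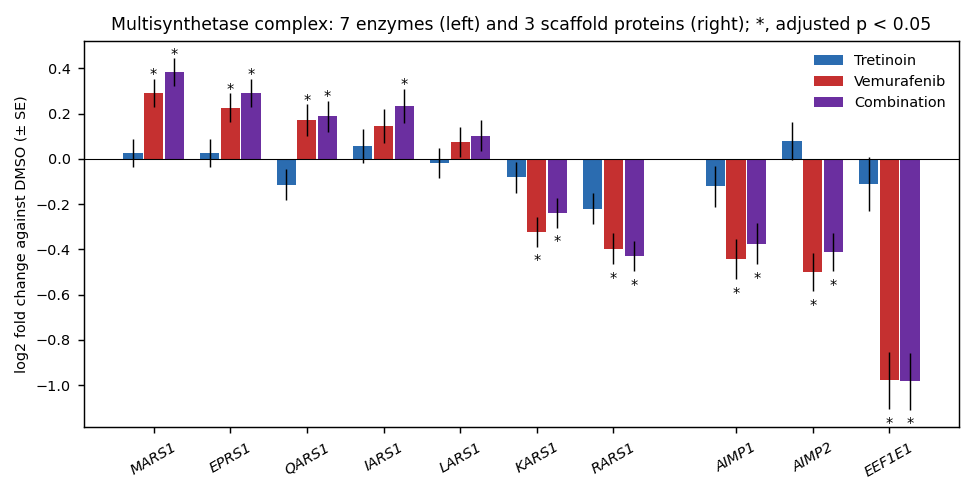
Log2 fold change against DMSO with its SE (y axis) for 7 enzymes and 3 scaffold proteins of the multisynthetase complex (x axis), with bars for tretinoin, vemurafenib and the combination and asterisks for called values. Enzymes fall on both sides of 0, while AIMP1, AIMP2 and EEF1E1 are negative and called in both groups with vemurafenib.

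Enzymes for the same amino acid were also compared between the compartments. Within each library, the ratio of the cytosolic to the mitochondrial gene was taken per length on the log2 scale for 18 pairs, with EPRS1 and FARS2 in 2 pairs each. Values did not overlap between vemurafenib and DMSO in 13 pairs, 7 higher and 6 lower with vemurafenib. Levels of single genes did not overlap for 61.9% of all genes tested, and ratios of other gene pairs were not computed. The smallest p that an exact two-sided permutation test of 3 against 3 libraries allows is 0.1. In 7 pairs the members were called in opposite directions: CARS1 and CARS2, MARS1 and MARS2, WARS1 and WARS2, and EPRS1 and EARS2 with the cytosolic gene higher, and HARS1 and HARS2, TARS1 and TARS2, and VARS1 and VARS2 with the mitochondrial gene higher. EPRS1 and PARS2 were the single pair called in the same direction. Of all genes tested, 26.4% rose and 26.3% fell with vemurafenib, and opposite calls were not counted among other gene pairs. Total counts alone left 3 opposite pairs, the methionine and histidine pairs with YARS1 and YARS2, and 3 pairs that both rose. Leaving out any single library left 5 opposite pairs, the methionine, histidine and threonine pairs and EPRS1 with EARS2 each time, and the low-count filter, when dropped, left 4.

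The methionine pair moved most. Its log2 ratio was 2.48, 2.40 and 2.35 with DMSO, 2.28, 2.74 and 2.67 with tretinoin, 3.72, 4.03 and 3.88 with vemurafenib and 3.88, 3.97 and 3.91 with the combination. MARS1 was thus 5.32 times the level of MARS2 per length with DMSO and 14.7 times with vemurafenib, from the mean log2 ratios of 2.41 ± 0.065 and 3.88 ± 0.16 (SD, n = 3, exact permutation p = 0.1). The histidine pair went the other way, from a mean log2 ratio of 1.29 ± 0.16 with DMSO to 0.41 ± 0.021 with vemurafenib (exact permutation p = 0.1). HARS1 and HARS2 lie next to each other and share 437 exon bases on opposite strands, so fragments there were counted for neither. The threonine pair went from 1.505 ± 0.13 to 0.96 ± 0.039 (exact permutation p = 0.1).

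**Figure D4:**
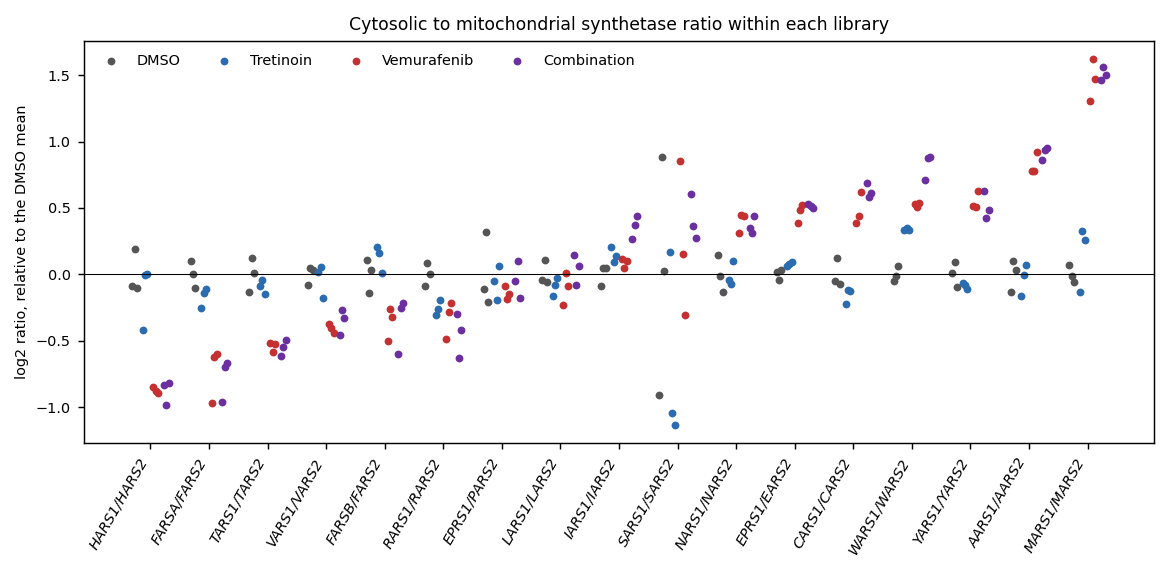
Log2 ratio of the cytosolic to the mitochondrial synthetase within each library, per length and relative to the DMSO mean (y axis), for 17 of the pairs (x axis, ordered by vemurafenib minus DMSO), with a point for each library coloured by group. MARS1/MARS2 is at the top right with vemurafenib and the combination, HARS1/HARS2 at the bottom left, and SARS1/SARS2 scatters widely, with 4 to 19 counts of SARS2 per library.

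Summed over the 20 cytosolic genes, the level was 5990 ± 254 CPM with DMSO, 5693 ± 189 with tretinoin, 6048 ± 27.3 with vemurafenib and 6458 ± 132 with the combination (SD, n = 3). In CPM the combination libraries, from 6339 to 6600, lay above all others. Per length they did not, as the cytosolic sum was 1272 to 1320 FPKM with the combination and 1214 to 1320 with DMSO. Its mean was 1261 FPKM with DMSO and 1218 with vemurafenib. Over the 17 mitochondrial genes the summed level was 1033 ± 15.97, 1018 ± 14.5, 1018 ± 26.2 and 1006 ± 17.3 CPM, and the groups overlapped. These sums are weighted to the most abundant genes.

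Calls were set beside the promoter motifs as a description. Of the 8 genes with the composite element, 4 rose with vemurafenib (AARS1, CARS1, GARS1 and MARS1) and 2 fell (TARS1 and YARS2). With the combination 5 rose, IARS1 being the fifth, and YARS2 fell. The 22 genes whose window held no such element gave 7 rises and 10 falls with vemurafenib, and 7 rises and 9 falls with the combination. WARS1, SARS1, HARS2 and TARS2 were among those rises. Of the 4 genes with an E-box, CARS2, EARS2 and MARS2 fell with both, and IARS1 rose with the combination. Among the 26 without one, 11 rose and 9 fell with vemurafenib. The share of all genes tested that was called higher was 26.4% with vemurafenib and 27.1% with the combination. The share called lower was 26.3% and 26.5%. The groups of 8 and 4 genes are small, and whether a motif goes with a direction was not tested.

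**Figure D5:**
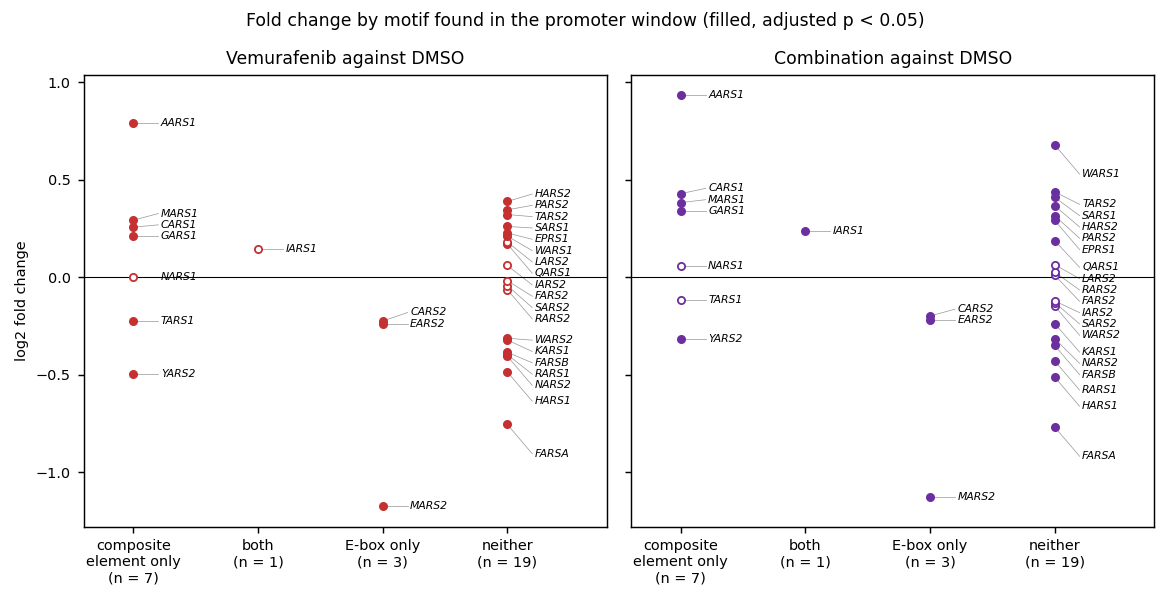
Log2 fold change against DMSO (y axis) with vemurafenib and with the combination for the 30 synthetase genes with a promoter window, grouped by the motif found there (x axis), with called genes filled. Genes with the composite element alone run from YARS2 below 0 to AARS1, the 3 with an E-box alone are all below 0, and genes with neither lie on both sides.

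ATF4 itself held 428, 447 and 448 CPM with DMSO, 403, 455 and 467 with tretinoin, 535, 522 and 565 with vemurafenib and 603, 588 and 586 with the combination. All libraries with vemurafenib lay above those without it, with the combination highest, and the log2 fold change was 0.29 ± 0.069 with vemurafenib and 0.42 ± 0.069 with the combination (edgeR, adjusted p = 0.00176 and 5.62e-05). A list, chosen with earlier results of these data known, held 21 genes of the ATF4 amino acid response, ATF4 included. Of these, 9 rose and 5 fell with vemurafenib, beside 26.4% and 26.3% of all genes tested. With the combination 14 rose and 3 fell, beside 27.1% and 26.5%. Between the combination and vemurafenib 5 rose and 0 fell by edgeR, beside 2.27% and 2.2%. At an unadjusted p below 0.05, 11 of the 21 differed there, beside 14.2% of all genes. PSPH, an enzyme of serine synthesis, rose by 0.87 ± 0.088 and 1.11 ± 0.088 on the log2 scale (adjusted p = 2.69e-07 and 1.15e-08). DDIT3, a stress transcription factor, rose by 0.98 ± 0.21 and 1.31 ± 0.20 (adjusted p = 0.000775 and 3.35e-05), and shares 39.6% of its exon bases with other genes, MARS1 among them. ASNS, which makes asparagine, rose from 0.8 ± 0.33 to 2.4 ± 0.178 CPM with the combination, a log2 fold change of 1.62 ± 0.28 (adjusted p = 0.000113), and 44.6% of its exon bases are shared with a neighbouring gene. The falls with the combination were those of TRIB3, an ATF4 target that also fell with vemurafenib (-0.52), at -0.37, and of the amino acid transporters SLC1A5 at -0.34 and SLC7A1 at -0.36, the last lost with total counts alone (-0.20). SLC7A5 and SLC3A2, which form an amino acid transporter together, were called lower with vemurafenib, at -0.26 and -0.25, and higher with the combination, at 0.35 and 0.23. The vemurafenib call of both was lost with total counts alone (-0.063 and -0.058), and that of SLC7A5 also without DMSO replicate 2 (-0.17) or 3 (-0.25) or vemurafenib replicate 1 (-0.24), 2 (-0.28) or 3 (-0.27). The combination call was lost without DMSO replicate 1 for both (0.24 and 0.18), and for SLC3A2 without combination replicate 2 (0.19). Between the combination and vemurafenib both genes were called higher, and these 2 calls were kept in all 13 alternatives.

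MYC held 55.2, 53.3 and 59.1 CPM with DMSO, 53.4, 49.2 and 55.98 with tretinoin, 4.31, 4.33 and 4.33 with vemurafenib and 5.67, 6.27 and 5.66 with the combination. Libraries with vemurafenib were all below 7 CPM and those without it all above 49. The log2 fold change of MYC was -3.69 ± 0.094 with vemurafenib and -3.25 ± 0.089 with the combination (edgeR, adjusted p = 4.05e-15 and 9.18e-15). Whether ATF4 or MYC had a part in the synthetase changes was not tested.

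Companion genes of charging were counted in the same way. Of 4 genes for mitochondrial glutamine charging and formylation, GATC and QRSL1, subunits of the amidotransferase that makes glutaminyl transfer RNA in mitochondria, fell with vemurafenib at -0.50 ± 0.094 and -0.44 ± 0.076, while GATB, its other subunit, rose at 0.31 ± 0.076 (edgeR, adjusted p = 0.000252, 0.000103 and 0.00228). With the combination the same calls were made, and without combination replicate 2 that of GATB was lost (0.20), as it was without the low-count filter (0.24). Total counts alone ended the calls of GATC (-0.15) and QRSL1 (-0.14) there. GATC shares 47.6% of its exon bases with other genes.

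Selenocysteine is made on its transfer RNA from serine, which SARS1 attaches. Of 4 genes of that route 3 rose with vemurafenib and with the combination, SEPSECS at 0.65 ± 0.10 and 0.81 ± 0.10, PSTK at 0.54 ± 0.16 and 0.65 ± 0.16, and EEFSEC at 0.52 ± 0.097 and 0.47 ± 0.097 (edgeR, adjusted p with the combination = 2.81e-06, 0.00214 and 0.000573). These calls held in all 13 alternatives. SEPHS2, the other gene, was not called, at -0.15 ± 0.064 with vemurafenib and -0.12 ± 0.064 with the combination (edgeR, adjusted p = 0.053 and 0.113). It was the most abundant of the 4, at 178 ± 5.83 CPM with DMSO. Of all genes tested, 26.4% rose with vemurafenib and 27.1% with the combination. SEPSECS held 15.8, 13.3 and 14.4 CPM with DMSO and 26.1, 27.9 and 22.5 with the combination, with no overlap.

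Of 3 genes for removal of wrongly charged amino acids (AARSD1, DTD1 and DTD2), 0 were called by edgeR with vemurafenib or the combination. There, 0 passed an unadjusted p of 0.05, beside 57.9% and 58.8% of all genes. AARSD1 held only 6 to 23 counts per library, with an SE of 0.52 and 0.50 on the log2 scale, so a change in it could hardly be called. It shares 34.2% of its exon bases with another annotated gene. DTD1 was called lower with tretinoin at -0.37 ± 0.10 (edgeR, adjusted p = 0.0458), a call kept in 4 of 13 alternatives (-0.25 without tretinoin replicate 1 and -0.28 without DMSO replicate 2, among others). Of 6 factors of mitochondrial initiation and elongation, MTIF3 rose and TSFM, GFM1 and TUFM fell with vemurafenib, the fall of TUFM (-0.18) turning to 0.015 with total counts alone and losing its call without DMSO replicate 2 (-0.15) or vemurafenib replicate 1 (-0.17) or 2 (-0.18). TSFM was at -0.65 ± 0.12, GFM1 at -0.42 ± 0.062 and MTIF3 at 0.31 ± 0.09 (edgeR, adjusted p = 0.000187, 1.9e-05 and 0.00746). These lists are small. Their counts stand beside a background of 26.4% higher and 26.3% lower with vemurafenib, and 27.1% and 26.5% with the combination.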

How the data were processed

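Poly(A) RNA was read from both ends in 12 libraries of A375 cells. The deposited values were raw fragment counts per gene in each library. The authors mapped reads with STAR 2.5.3a on GRCh38.p10 under the GENCODE 27 gene models and counted fragments by summarizeOverlaps in Union mode without regard to strand, so fragments touching exons of several genes went uncounted and antisense genes cannot be told apart. Gene IDs were paired with symbols from a table of gene names. GENCODE 29 gave positions, exon lengths and shared exon bases, and RefSeq (GRCh38.p14) the promoters.

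Genes with low counts were removed by filterByExpr with the 4 groups, leaving 16740. Counts were scaled by TMM and fitted over all 12 libraries in edgeR 4.0.16 (R 4.3.3) with the quasi-likelihood test and no replicate term. The 6 comparisons were each adjusted by Benjamini-Hochberg over all genes tested, with a threshold of 0.05, and SE was the log2 fold change divided by the square root of F. FPKM used TMM-scaled library sizes and exon union lengths. Ratios within a library added 0.5 to each count. Genes were shown in every library if they were among the 5 largest changes in each direction for vemurafenib or the combination, were called with tretinoin, between the combination and vemurafenib or in the interaction, or were the 2 most abundant of those called nowhere, 17 in all. The 3 called genes of each companion list with the largest change under the combination were named, and ATF4 and MYC always. Others (such as YARS1, TUFM, TRIB3, SLC7A5, SLC1A5 and DTD1) were named after their values were seen. The script was tested on simulated counts with 200 changed genes. DESeq2 1.42.0, other scalings and filters, fits of only the groups compared, a replicate block and the omission of each library were tried as alternatives. Replicates differed by more than counting noise in all 12 pairs within groups, with a chi-square of 2.56 to 21.8 per degree of freedom. The synthetase genes and the companion lists were chosen with earlier results of these data known. Of the synthetase genes, 2 are counted but not reported singly or drawn here.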

Additional observations from a re-analysis of the deposited data

How the results depend on the processing

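Of 77 values for single genes, DESeq2 left 75 with the same direction and side of the threshold, RLE factors 74, total counts 56, no low-count filter 61, a minimum of 10 counts in every library 75, and fits of only the groups compared 72. Leaving out single libraries left 400 of 462. The direction turned for IARS2 between the combination and DMSO, at 0.041 with total counts alone. For synthetase genes, fits of only the groups compared called 0 rises with tretinoin, 1 fall between the combination and vemurafenib, and 4 falls between the combination and tretinoin. DESeq2 called 2 falls with tretinoin and 1 between the combination and vemurafenib. Without a low-count filter there were 1 fall with tretinoin, 6 rises with vemurafenib and 1 positive interaction. With total counts alone there were 6 falls with vemurafenib, 5 with the combination and 4 between the combination and tretinoin. Scaling by total counts moved the median of all genes by 0.20 with vemurafenib and 0.16 with the combination on the log2 scale. The cause of the other differences was not tested.

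Leaving out single libraries gave, for synthetase genes, 0 to 1 rises and 0 to 3 falls with tretinoin, 6 to 9 rises and 14 to 14 falls with vemurafenib, 10 to 13 and 10 to 11 with the combination, 12 to 13 and 5 to 9 between the combination and tretinoin, and 1 to 1 rise between the combination and vemurafenib. For all genes tested it gave 273 to 711 rises and 106 to 656 falls with tretinoin, 3797 to 4107 and 3917 to 4219 with vemurafenib, 3923 to 4173 and 4004 to 4242 with the combination, 254 to 343 and 203 to 271 between the combination and vemurafenib, 3487 to 4009 and 3818 to 4271 between the combination and tretinoin, and 31 to 121 and 27 to 144 for the interaction.

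Counts over all genes moved by more than 1.5 times as follows. With tretinoin, 583 genes rose and 368 fell, against 234 and 71 with only the groups compared, 635 falls by DESeq2, 174 with total counts and 804 without a filter. With total counts 2628 genes fell with vemurafenib and 2916 with the combination, against 4400 and 4440. Between the combination and vemurafenib, 380 rose and 369 fell, against 584 and 685 with only the groups compared. The interaction gave 64 higher and 71 lower, against 126 and 150 by DESeq2, 36 and 132 with total counts, and 389 and 221 without a filter.

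Replicates share numbers across groups, but the labels tie no number to a culture or day. Deviations from the group means correlated by -0.044 on average over 18 same-numbered pairs, and 1 of 12 libraries correlated best with its own number, so the replicate block is given only here. With the block, 219 genes fell with tretinoin, 39 had a higher and 36 a lower interaction, and 72 of the 77 gene values kept their side of the threshold. Depth limits SARS2, with 4 to 19 counts per library.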
